A study of Mus musculus with 8 samples.

Results

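The tables of this study list, beside mature miRNAs, tRNAs and other non-coding RNAs, 450 miRNA hairpin features: entries of type miRNA that carry an Ensembl transcript identifier, the hairpins of Mir223 and Mir342 being left out. They were taken by type and identifier alone, from 3514 features in all, with no use of read numbers. Of the 450, 306 were in the Ion Proton table, 295 in the SOLiD table and 151 in both. The cells were bone marrow-derived macrophages (BMDMs) of wild type C57BL/6J male mice, 10 weeks old, grown in medium conditioned by L929 cells, a source of M-CSF. Control cells kept that medium, and the others spent 36 h without M-CSF, which macrophages need to survive. The Ion Proton run had 2 control and 2 M-CSF withdrawal libraries, and the SOLiD run had 1 library per condition from total RNA and 1 per condition from RNA of 25 to 40 nt cut from a gel, so that only the Ion Proton run has replicates.

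An miRNA gene is transcribed into a long RNA, from which the enzyme Drosha cuts a hairpin. Dicer then removes the loop, and 1 strand of the remaining duplex is kept by an Argonaute protein as the mature miRNA of about 22 nt, while the other strand and the loop are usually lost. Reads on a hairpin feature can thus come from the precursor, from the loop or flanks, or from any other RNA with the same letters. In a bulk sample, less RNA per cell and fewer cells that hold it cannot be told apart.

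Of the 450 hairpins, 230 could be paired with a listed mature miRNA of the same gene by symbol or position. Another 37 had a Mir symbol with no mature miRNA listed, and 183 had no Mir symbol: 62 of the 450 had no gene symbol at all in the annotation used and are called here by their Ensembl identifier. The 6 sequences of the paired group shown first were taken because their genes carry the contrast between a hairpin and its product. They were read from the deposited Ion Proton table, 5′ to 3′, with the mature miRNAs in capitals.
Mir222: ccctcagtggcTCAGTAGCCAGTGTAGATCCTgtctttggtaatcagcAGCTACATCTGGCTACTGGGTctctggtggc
Mir21a: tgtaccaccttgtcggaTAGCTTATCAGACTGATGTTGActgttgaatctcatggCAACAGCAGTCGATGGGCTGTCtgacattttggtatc
Mir16-1: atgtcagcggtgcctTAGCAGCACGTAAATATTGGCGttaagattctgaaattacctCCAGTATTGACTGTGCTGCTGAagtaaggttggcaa
Mir10a: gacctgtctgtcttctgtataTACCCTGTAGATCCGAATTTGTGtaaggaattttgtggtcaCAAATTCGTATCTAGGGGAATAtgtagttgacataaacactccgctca
Mir1956: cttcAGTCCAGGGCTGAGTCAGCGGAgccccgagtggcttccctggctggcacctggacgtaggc
Mir5099: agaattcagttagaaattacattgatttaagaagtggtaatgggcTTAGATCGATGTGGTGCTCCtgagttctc
In genome build mm10, Mir222 lies at chrX:19146893-19146971 on the minus strand, outside other annotated genes, and Mir21a at chr11:86584067-86584158, minus strand, within an exon of Vmp1, a gene of autophagosome formation. Mir16-1, at chr14:61631880-61631972, minus strand, lies in an exon of the non-coding RNA gene Dleu2. Mir10a lies at chr11:96317165-96317274, plus strand, Mir1956 at chr3:138526421-138526485, plus strand, in an exon of the translation factor gene Eif4e, and Mir5099 at chr12:36816205-36816278, plus strand.

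The next sequences, from the same table, belong to hairpins without a listed mature miRNA that held most of the hairpin reads of the Ion Proton run or passed its test. No part of them is in capitals, since no product is annotated.
ENSMUST00000175336: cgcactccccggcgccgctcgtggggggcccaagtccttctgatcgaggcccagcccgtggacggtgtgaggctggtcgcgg
ENSMUST00000175596: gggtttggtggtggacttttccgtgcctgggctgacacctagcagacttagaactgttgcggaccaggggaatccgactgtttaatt
ENSMUST00000175357: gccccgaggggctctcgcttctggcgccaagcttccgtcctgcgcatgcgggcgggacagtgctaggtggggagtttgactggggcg
ENSMUST00000175243: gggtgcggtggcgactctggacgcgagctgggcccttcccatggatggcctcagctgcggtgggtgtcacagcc
Gm26117: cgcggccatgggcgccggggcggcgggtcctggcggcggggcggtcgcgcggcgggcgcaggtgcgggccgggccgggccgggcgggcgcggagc
The first 4 have no symbol in the annotation used. ENSMUST00000175336 lies at chr5:146261003-146261084, plus strand, in an intron of Cdk8, ENSMUST00000175596 at chr5:17776749-17776835, minus strand, ENSMUST00000175357 at chr7:130834437-130834523, plus strand, opposite an intron of Fgfr2, and ENSMUST00000175243 at chr2:73012854-73012927, minus strand. Gm26117 lies at chr15:74563821-74563915, plus strand, in an exon of Adgrb1. A comparison of these letters with ribosomal RNA beyond the listed features was not made here. A further family shows how copies share reads: Gm24270, Gm23935 and Gm24245 have the same 57 nt at 3 places, and Gm23388 (57 nt) and Gm25911 (56 nt) are close variants, with the longest run shared by all 5 (13 nt) in capitals.
Gm24270: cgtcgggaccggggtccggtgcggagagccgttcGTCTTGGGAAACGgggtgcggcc
Gm23388: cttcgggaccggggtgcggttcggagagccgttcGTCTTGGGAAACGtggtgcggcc
Gm25911: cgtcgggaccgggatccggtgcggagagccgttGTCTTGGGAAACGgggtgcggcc
The 3 identical copies had 391 to 666 reads per Ion Proton library, and Gm23388 differed from them at 4 positions. In all, 45 hairpins in 12 groups had a sequence identical to that of another hairpin, and 225 shared a stretch of at least 18 nt with another one, among the 440 with a sequence at hand. Since up to 10 mapping places per read were reported in the Ion Proton run, such copies are not independent. By position, 6 hairpins overlapped a listed feature outside miRNA: Mir1983, ENSMUST00000175893 and ENSMUST00000176544 a tRNA, and Mir29b-1, Mir30c-2 and Mir219a-1 a lincRNA. By sequence, 58 hairpins shared a stretch of at least 18 nt, on either strand, with a feature outside miRNA in the Ion Proton table. These 58 held 0.46% to 0.67% of the hairpin reads in the Ion Proton libraries and 12.1% to 19.6% in the SOLiD libraries. RNA outside the listed features could not be found by this search, so these shares set no upper limit.

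Each Ion Proton library held 6053130 to 7760142 reads on listed features. Control and withdrawal held 5772453 and 12178454 for SOLiD total RNA, and 8910972 and 4039837 for size-selected RNA, so that 1 read was worth 0.0821 to 0.248 on the scale used here. Levels are reads per 1000000 listed reads (CPM for Ion Proton, RPM for SOLiD), not divided by length. RNA integrity numbers were 8.4 to 8.9 in the Ion Proton libraries. In SOLiD, control and withdrawal had 8.4 and 7.5 for total RNA, and 2.7 and 2.6 for size-selected RNA. Of the macrophage and blood cell miRNAs, miR-21a-5p, the highest mature miRNA of the Ion Proton run, was at 42646 to 63063 CPM there. Macrophage miR-146a-5p had 7436 to 9638 CPM by Ion Proton and 6550 to 42421 RPM by SOLiD. For miR-155-5p these were 177 to 222 CPM and 361 to 999 RPM. The platforms differed more in others: miR-223-3p had 66.9 to 96.5 CPM by Ion Proton but 4473 to 11725 RPM by SOLiD. In turn, miR-142a-3p had 169 to 252 CPM by Ion Proton but 0.112 to 3.71 RPM by SOLiD. A marker of red blood cells, miR-451a, had 1.25 to 6.44 CPM by Ion Proton but 2394 to 3988 RPM by SOLiD. Another, miR-144-3p, was low on both, with 1.03 to 2.45 CPM and 1.46 to 2.97 RPM. Markers of other tissues were also higher by SOLiD. Lymphoid miR-150-5p had 0 to 1.81 CPM but 407 to 601 RPM, and liver miR-122-5p 0 to 0.165 CPM but 52.7 to 89.6 RPM. Neuronal miR-9-5p had 0.418 to 4.6 CPM but 34.7 to 54.95 RPM. Muscle miR-133a-3p, listed in SOLiD alone, had 207 to 394 RPM. Muscle miR-1a-3p and neuronal miR-124-3p had no values on either platform. The part of other cells in the results below was not tested.

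Hairpin reads were a small share of each library. In the Ion Proton run they made up 0.362% and 0.332% of listed reads in the controls and 0.493% and 0.453% after M-CSF withdrawal, from 23866 to 32151 reads. Both withdrawal libraries were above both controls, 1.36-fold in the mean (0.347% ± 0.0213 against 0.473% ± 0.0283, SD, n = 2 each; exact two-sided permutation test p = 0.333, the smallest that 2 against 2 can give). The SOLiD libraries had less than the lowest of these: 0.148% (95% Wilson interval 0.145 to 0.151) in control and 0.171% (0.169 to 0.174) after withdrawal for total RNA, and 0.171% (0.168 to 0.174) and 0.152% (0.148 to 0.156) for size-selected RNA. These intervals cover counting error only.

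**Figure D1:**
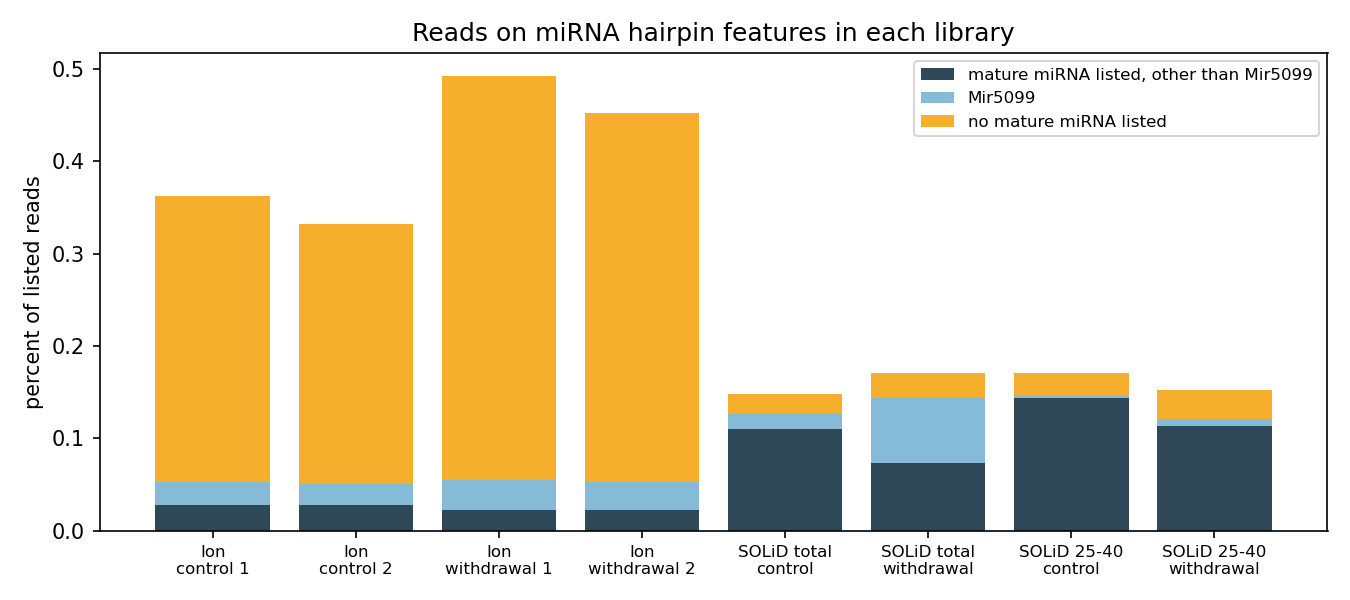
Percent of listed reads on hairpin features in each of the 8 libraries (bars from 0), stacked by whether a mature miRNA of the gene was listed, with Mir5099 apart. The part without a listed mature miRNA reaches 0.438% and 0.401% in the Ion Proton withdrawal libraries and stays at 0.0218% to 0.0308% in the SOLiD libraries.

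The composition of these reads differed between the platforms. Hairpins without a listed mature miRNA held 0.310% and 0.282% of the listed reads in the Ion Proton controls and 0.438% and 0.401% after withdrawal. The paired hairpins held 0.0525% and 0.050% against 0.0551% and 0.0522%, a ratio of 1.05 (exact two-sided permutation test p = 0.667). Paired hairpins without Mir5099 held 0.0280% and 0.0274% in control and 0.0223% and 0.0224% after withdrawal, so that here both withdrawal values were lower (ratio 0.809, exact two-sided permutation test p = 0.333). SOLiD gave 0.110% and then 0.0733% of the same set for total RNA, and 0.143% and then 0.114% for size-selected RNA. The higher whole share after withdrawal in Ion Proton thus lay in some of the unpaired hairpins and in Mir5099, while the other paired hairpins had lower values in each of the 3 comparisons. It lay mainly in ENSMUST00000175596, whose mean went from 809 to 1786 CPM, and in ENSMUST00000175357, from 42.4 to 357 CPM. The unpaired hairpin with the most reads in control, ENSMUST00000175336, went the other way, from 1625 to 1448 CPM.

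In the Ion Proton libraries a few entries held nearly all hairpin reads: the top 3 took 75.1% to 77.3% and the top 8 86.9% to 89.6%. ENSMUST00000175336 was the highest in the controls and ENSMUST00000175596 after withdrawal. In the SOLiD libraries the top 3 took 36.4% to 56.8%, led by Mir222 in 3 libraries and by Mir5099 in total RNA after withdrawal. Across the 151 hairpins in both tables, Spearman's rho of the mean levels was 0.38 between Ion Proton and SOLiD total RNA and 0.82 between the SOLiD preparations, which share a platform. These are descriptions over features, many of them at a few reads.

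**Figure D2:**
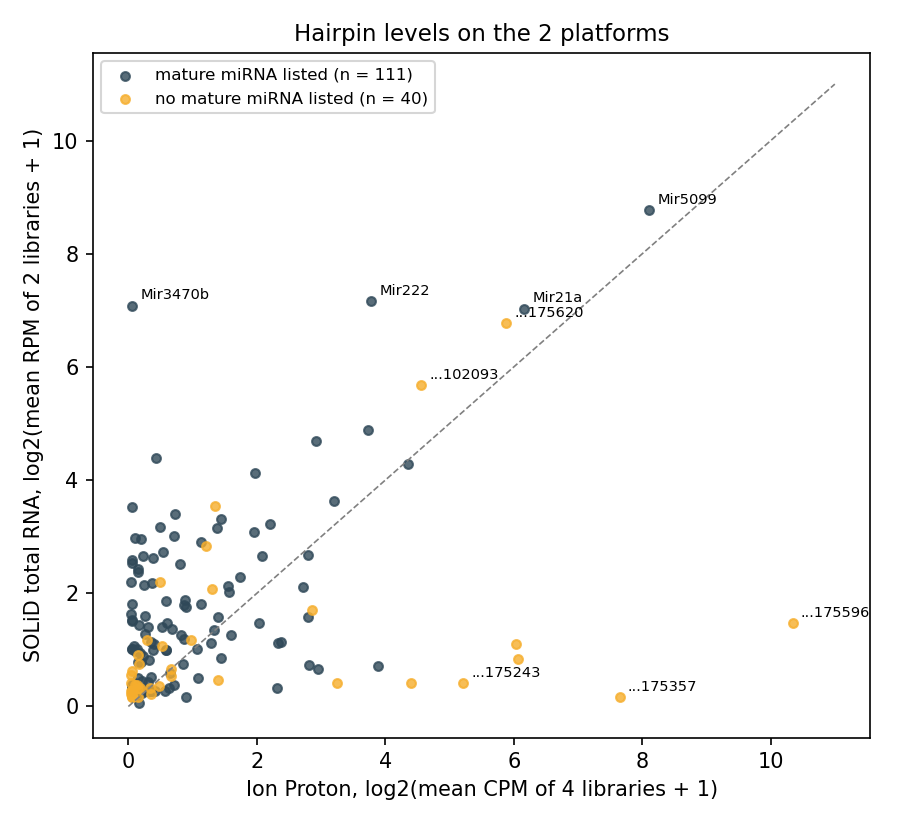
Mean level of the 151 hairpins in both tables, Ion Proton (4 libraries, x axis) against SOLiD total RNA (2 libraries, y axis), both as log2 of reads per 1000000 + 1. The dashed line marks equal levels, and names starting with dots are the last digits of an Ensembl identifier. Mir5099 and Mir21a are high on both, ENSMUST00000175596 and ENSMUST00000175357 are far higher in Ion Proton, and Mir3470b and Mir222 are higher in SOLiD.

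Among the unpaired hairpins, ENSMUST00000175336 had 1612 and 1638 CPM in the Ion Proton controls and 1482 and 1415 CPM after withdrawal. It was not listed in the SOLiD table. Its groups did not overlap, yet the change of -0.11 ± 0.06 (log2, SE) did not pass the test (edgeR quasi-likelihood, Benjamini-Hochberg adjusted p = 0.308) and became 0.28 with TMM over mature miRNA features. ENSMUST00000175596 had 911 and 706 CPM in the controls and 1916 and 1656 CPM after withdrawal. It rose by 1.19 ± 0.15 on the log2 scale (edgeR, adjusted p = 0.00909). In SOLiD it had 2 and 39 reads in total RNA and 8 and 41 in size-selected RNA, or 0.347 and 3.20 RPM and 0.898 and 10.2 RPM, ratios of 9.24 (95% counting interval 2.39 to 79.0) and 11.3 (5.23 to 27.9). All 3 comparisons thus had more after withdrawal, at levels that differed by far between the platforms.

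The steepest rise among the called hairpins was that of ENSMUST00000175357, with 44.3 and 40.4 CPM in the Ion Proton controls and 382 and 331 CPM after withdrawal. The groups were far apart, with a log2 change of 3.13 ± 0.11 (SE; edgeR, adjusted p = 0.000688). In SOLiD it was hardly detected: 0 reads in the total RNA control, which allows up to 0.520 RPM, and 3, 1 and 5 reads in the others. ENSMUST00000175243 went from 24.0 and 20.2 CPM to 51.4 and 48.4 CPM (log2 change 1.23 ± 0.13, edgeR adjusted p = 0.00524), and Gm26117 from 3.35 and 1.25 to 13.9 and 15.4 CPM (2.70 ± 0.43, adjusted p = 0.0150). Both had at most 1.24 RPM in the 4 SOLiD libraries, from 1 to 6 reads.

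In the 57 nt family the identical copies and their variants differed in their calls, a difference that was not itself tested. Gm24270, Gm23935 and Gm24245 had 54.5 to 85.8 CPM in the controls and 74.2 to 93.5 CPM after withdrawal, and none passed the test (edgeR adjusted p = 0.278 to 0.318). Gm23388 rose from 16.9 and 13.8 to 26.2 and 23.8 CPM (log2 change 0.76 ± 0.16, edgeR adjusted p = 0.0320). Gm25911 rose from 3.48 and 4.32 to 9.05 and 8.26 CPM (1.2 ± 0.22, edgeR adjusted p = 0.0228). Neither of these was called with DESeq2 (adjusted p = 0.180 and 0.199) or without either withdrawal library (edgeR adjusted p = 0.108 to 0.160), nor was Gm23388 without control replicate 2 (0.0642) or Gm25911 without control replicate 1 (0.0694).

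Mir5099 was the highest paired hairpin in the Ion Proton run. It had 245 and 226 CPM in the controls and 327 and 298 CPM after withdrawal, with no overlap. It rose by 0.46 ± 0.09 on the log2 scale (edgeR, adjusted p = 0.0246), a call that was lost when any 1 of the 4 libraries was left out (adjusted p = 0.0513 to 0.135). In SOLiD it went from 169 RPM (95% counting interval 158 to 180) to 700 RPM (686 to 715) in total RNA and from 30.7 to 77.7 RPM in size-selected RNA. Its mature miRNA, miR-5099, had 997 and 994 CPM in the controls and 1131 and 1310 CPM after withdrawal (0.35 ± 0.10, edgeR adjusted p = 0.0817). There were 246 and 228 hairpin reads per 1000 mature reads in the controls and 289 and 227 after withdrawal, so that this ratio overlapped between the conditions. In SOLiD total RNA the hairpin even exceeded the mature miRNA, with 1598 and 2486 reads per 1000.

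Mir222 encodes an miRNA that, with miR-221, is known to target the cell cycle inhibitor p27 (Cdkn1b). Its hairpin had 15.5 and 16.3 CPM in the Ion Proton controls and 10.1 and 9.25 CPM after withdrawal. It fell by 0.66 on the log2 scale (SE 0.15; edgeR, adjusted p = 0.0418), with no overlap, but it was not called with DESeq2, with TMM over mature miRNA features, with a filter of 1 summed read, or without control replicate 2 or either withdrawal library (adjusted p = 0.0549 to 0.325). In SOLiD the hairpin was far higher, with 193 RPM (182 to 205) in control and 90.7 RPM (85.5 to 96.2) after withdrawal in total RNA, and 578 and 466 RPM in size-selected RNA. Its main product miR-222-3p fell by 0.74 (SE 0.06; edgeR, adjusted p = 0.00274). Hairpin and product were lower together: the Ion Proton ratio was 0.819 and 0.903 hairpin reads per 1000 mature reads in control and 0.939 and 0.883 after withdrawal, and in SOLiD it was 34.0 and 25.6 in total RNA and 55.0 and 53.7 in size-selected RNA. The neighbouring Mir221 had 0.557 to 3.99 CPM with overlapping groups in Ion Proton, 10.0 and 5.75 RPM in SOLiD total RNA, and 26.2 and 21.8 RPM in size-selected RNA, although miR-221-3p was higher than miR-222-3p in the Ion Proton run (23813 and 14501 CPM in the mean).

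Mir10a was the other hairpin that fell. It had 2.19 and 2.51 CPM in the Ion Proton controls and 0.613 and 0.496 CPM after withdrawal. It fell by 1.99 on the log2 scale (SE 0.49; edgeR, adjusted p = 0.0498), and the call was lost when any 1 of the 4 libraries was left out (adjusted p = 0.0696 to 0.222) and with TMM over mature miRNA features (0.0916). In SOLiD total RNA it had 1.04 and 1.31 RPM, and in size-selected RNA 0.224 and 1.73 RPM, from 2 to 16 reads, which did not go the same way. The product miR-10a-5p fell by 0.42 (SE 0.06; edgeR, adjusted p = 0.0148). Mir1956 rose from 1.42 and 1.39 CPM to 5.21 and 8.09 CPM (log2 change 2.28 ± 0.36, edgeR adjusted p = 0.0148), a call that was lost without withdrawal replicate 2 (1.92, adjusted p = 0.0935). Its hairpin reads exceeded those of miR-1956, which had 0.836 to 2.15 CPM, in each of the 8 libraries.

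**Figure D3:**
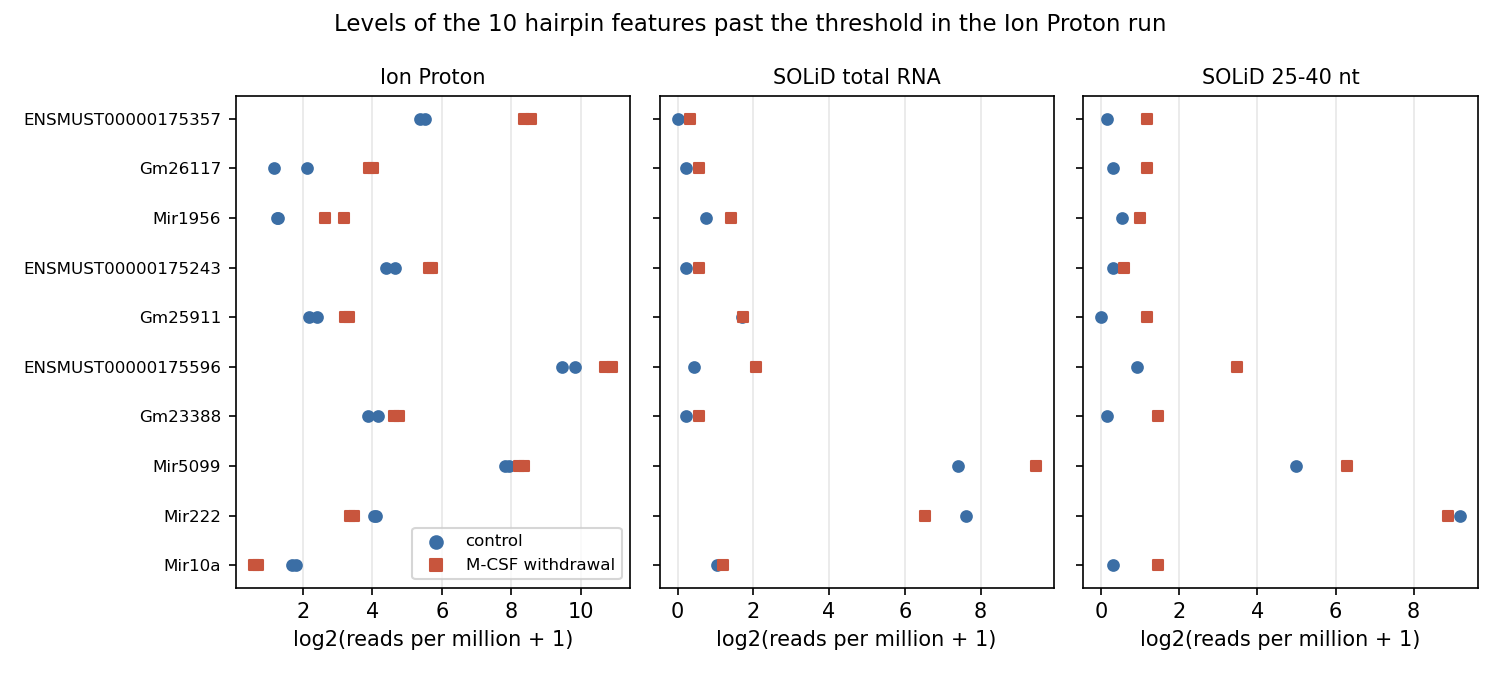
Levels of the 10 hairpin features called in the Ion Proton run, as log2 of reads per 1000000 + 1, in Ion Proton (2 points per condition) and in the SOLiD libraries (1 point per condition). Circles are control and squares M-CSF withdrawal. ENSMUST00000175357 is the most shifted in Ion Proton, and Mir222 is higher in SOLiD than in Ion Proton.

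Over all features, 500 of 2029 tested in the Ion Proton run passed an adjusted p of 0.05 with edgeR (24.6%), 15.7% higher and 8.97% lower after withdrawal. Of the 306 hairpins in that table, 142 had a summed count of at least 5 and were tested, and 164 were not. The 10 called are 7.04% of those tested, with 8 higher and 2 lower, a share below the background. The median log2 change of the 142 tested hairpins was 0.38, against 0.08 over all features tested. An unadjusted p under 0.05 was found for 31 of the 142. By group, 4 of 87 tested paired hairpins passed, 2 in each direction, with a median of -0.26, and 6 of 52 hairpins without a Mir symbol passed, all higher, with a median of 1.04. With TMM factors from mature miRNA features alone, the median of all features moved from 0.08 to 0.46, 11 hairpins were called and each of them was higher, so directions of small changes are relative to the scaling.

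Both runs together, in a limma model of treatment and run over the 3 control and 3 withdrawal libraries of total RNA, gave 294 of 1708 features past an adjusted p of 0.05 (17.2%), 11.6% higher and 5.62% lower. Of 151 hairpins in both tables, 90 were tested and 7 passed (7.78%). The 4 that rose were ENSMUST00000175596 (1.31 ± 0.21, log2, SE), Mir1956 (1.31 ± 0.32) and the identical copies Mir692-2 and Mir692-3 (0.81 ± 0.19 each, with the same reads). The 3 that fell were Mir26a-2 (-1.31 ± 0.29), Mir16-1 (-1.26 ± 0.30) and Mir339 (-1.23 ± 0.31), with adjusted p from 0.0147 to 0.0455 over the 7. Mir26a-2, Mir339 and both Mir692 copies are named here after their values were seen. Leaving out 1 Ion Proton library gave 0 or 1 call (1 without control replicate 1 and 0 without each of the others, where 12 to 20 hairpins had an unadjusted p under 0.05 with limma), while leaving out a SOLiD library gave 15 or 17. With a single SOLiD library left, the run term takes it up, so the change in those fits rests on the Ion Proton libraries alone.

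Mir16-1, which encodes an miRNA that targets genes of the cell cycle and of survival, lay just outside the threshold in the Ion Proton run. It had 11.1 and 12.9 CPM in the controls and 3.07 and 5.78 CPM after withdrawal (log2 change -1.39 ± 0.35, edgeR adjusted p = 0.0509). The groups did not overlap, and SOLiD total RNA had 16.1 and 6.65 RPM, a ratio of 0.413 (95% counting interval 0.303 to 0.562). The product miR-16-5p, shared with Mir16-2, fell by 0.60 (SE 0.06; edgeR, adjusted p = 0.00554). There were 5.93 and 6.89 hairpin reads per 1000 mature reads in the Ion Proton controls and 2.56 and 4.83 after withdrawal. In SOLiD, control and then withdrawal, there were 2.09 and 1.27 in total RNA but 0.276 and 0.348 in size-selected RNA. The hairpin of Mir16-2, named here from its values, went the other way in Ion Proton, from 21 reads (log2 change 3.35 ± 1.24, edgeR adjusted p = 0.137).

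Mir21a stood out by the abundance of its product rather than by its change. The hairpin had 83.6 and 73.8 CPM in the controls and 61.3 and 63.1 CPM after withdrawal, without overlap, and its change of -0.29 ± 0.11 did not pass the test (edgeR, adjusted p = 0.140) and became 0.10 with TMM over mature miRNA features. SOLiD had 139 and 121 RPM in total RNA and 71.6 and 33.7 RPM in size-selected RNA. Per 1000 mature reads there were 1.42 and 1.16 hairpin reads in the Ion Proton controls and 1.42 and 1.27 after withdrawal, which overlap, against 0.387 and 0.921 in SOLiD total RNA and 0.397 and 0.550 in size-selected RNA.

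Other hairpins were high in SOLiD alone. Mir3470b, whose 126 nt share 18 nt stretches with 17 other hairpins, had 177 and 93.0 RPM in total RNA and 57.9 and 77.2 RPM in size-selected RNA, but a single read in the 4 Ion Proton libraries. The direction differed between the SOLiD preparations, with ratios of 0.526 (95% counting interval 0.483 to 0.574) and 1.33 (1.16 to 1.54). Mir690, which was not listed in the Ion Proton table as a hairpin, shares 18 nt stretches with 23 other hairpins. It had 35.2 and 35.4 RPM in total RNA and 68.8 and 87.9 RPM in size-selected RNA. In both genes the hairpin exceeded the mature miRNA, with at least 5395 hairpin reads per 1000 mature reads. Their sequences are shown with the annotated mature stretch in capitals, Mir3470b from the deposited table and Mir690 from the GENCODE transcripts.
Mir3470b: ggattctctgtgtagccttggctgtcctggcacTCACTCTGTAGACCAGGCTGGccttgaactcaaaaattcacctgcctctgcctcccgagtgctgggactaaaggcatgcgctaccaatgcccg
Mir690: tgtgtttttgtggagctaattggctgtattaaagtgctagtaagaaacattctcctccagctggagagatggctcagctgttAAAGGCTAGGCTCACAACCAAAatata
ENSMUST00000175620 and ENSMUST00000102093, which have no symbol, were high on both platforms. The former had 57.6 and 65.2 CPM in the Ion Proton controls and 45.1 and 64.8 CPM after withdrawal, which overlap, and 66.2 and 151 RPM in SOLiD total RNA. The latter had 18.9 and 22.7 CPM and then 25.2 and 23.8 CPM in Ion Proton, and 56.8 and 44.1 RPM in SOLiD total RNA.

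In most genes the hairpin had fewer reads than the mature miRNAs of the same gene. This held for 112 to 114 of the 115 to 120 pairs with mature reads in each Ion Proton library and for 173 to 179 of 189 to 197 in each SOLiD library. The median was 0.280 to 1.22 hairpin reads per 1000 mature reads in Ion Proton and 1.84 to 5.17 in SOLiD. Summed over all hairpins, there were 9.06 and 8.06 hairpin reads per 1000 mature miRNA reads in the Ion Proton controls and 16.7 and 15.2 after withdrawal (8.56 ± 0.709 against 15.9 ± 1.10, SD, n = 2 each; exact two-sided permutation test p = 0.333). Most of this sum came from hairpins with no listed mature miRNA, with 7.75 and 6.85 per 1000 in control and 14.85 and 13.4 after withdrawal. For paired hairpins without Mir5099 the values were 0.699 and 0.663 against 0.757 and 0.749, without overlap and 1.11-fold apart in the mean (exact two-sided permutation test p = 0.333). In SOLiD this last ratio was 1.33 and then 1.78 for total RNA, and 1.64 and then 2.53 for size-selected RNA. As a share of listed reads, the same hairpins were lower after withdrawal in each of these comparisons, as given above. The higher ratio thus came with mature reads that were lower by more.

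**Figure D4:**
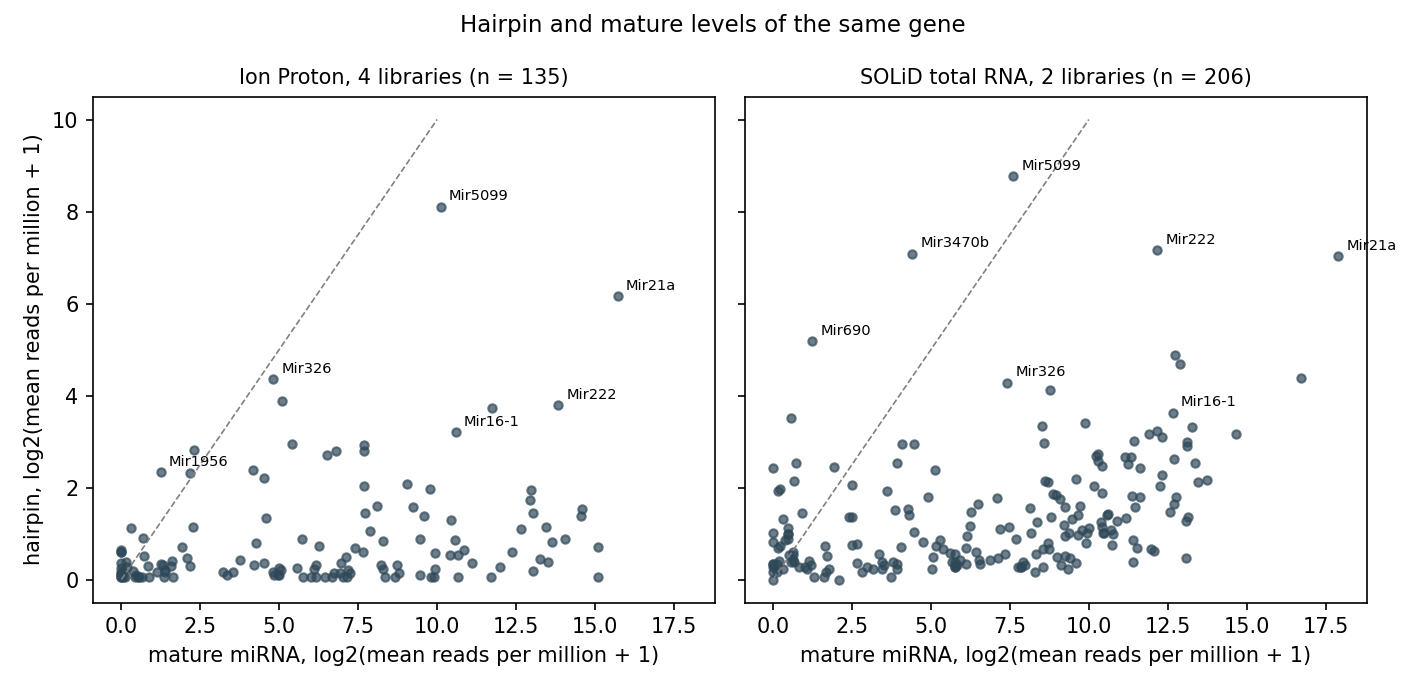
Level of each hairpin (y axis) against the summed level of the listed mature miRNAs of its gene (x axis), as log2 of mean reads per 1000000 + 1, for 135 pairs in Ion Proton and 206 in SOLiD total RNA. The dashed line marks equal levels. Most genes lie below it, while Mir3470b and Mir690 lie above it in SOLiD.

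Gene by gene, 80 of the 135 pairs in the Ion Proton table had at least 5 summed reads on both sides. The log2 ratio of hairpin to mature reads (0.5 reads added to both) was higher in both withdrawal libraries than in both controls in 23 genes, lower in 12 and overlapping in 45. For comparison, the ratio of 5p to 3p reads of mature miRNAs, formed the same way, did not overlap in 48 of 138 (34.8%). Among genes with at least 40 hairpin reads, Mir93, of the Mir106b cluster that is linked to proliferation, had ratios of -8.37 and -7.28 in control and -8.68 and -12.51 after withdrawal, where its hairpin had 2.06 and 4.74 CPM and then 1.07 and 0 CPM. Its neighbour Mir106b had -7.31 and -6.10 and then -7.35 and -9.18. In SOLiD, control and then withdrawal, Mir93 had -7.83 and -9.61 in total RNA and -7.64 and -8.39 in size-selected RNA. There Mir106b was slightly higher after withdrawal, with -10.37 and -10.18 in total RNA and -9.33 and -9.13 in size-selected RNA. At the other end, Mir221 had -14.66 and -15.49 and then -12.24 and -14.38, from 43 hairpin reads in all. Mir34a, a target of p53, had overlapping ratios in Ion Proton (-4.00 and -4.85, then -3.83 and -4.28) and a level of 4.18 to 7.82 CPM, while SOLiD had 1.04 and 9.77 RPM in total RNA and 2.81 and 10.1 RPM in size-selected RNA, from 6, 119, 25 and 41 reads. Mir93, Mir106b and Mir34a are named from their values.

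**Figure D5:**
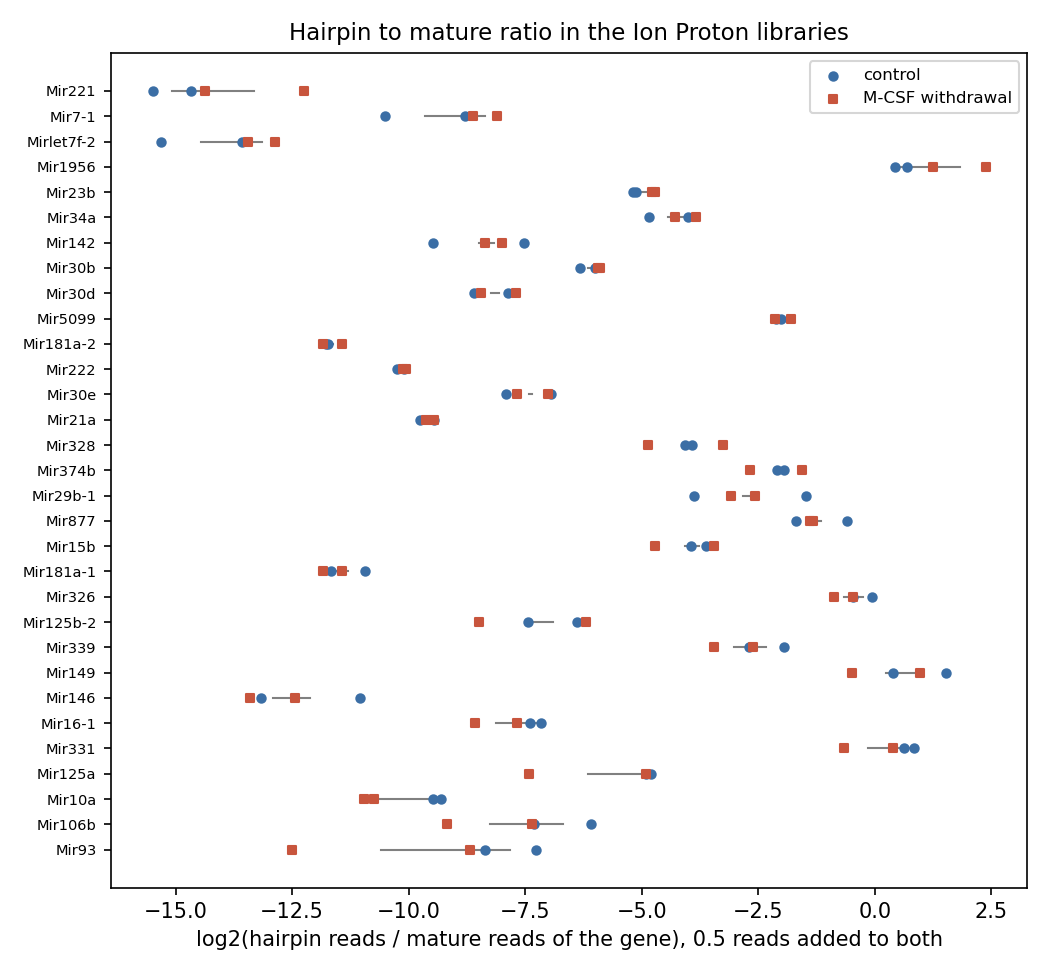
Log2 ratio of hairpin to mature reads in the 2 control (circles) and 2 withdrawal (squares) Ion Proton libraries, for the 31 genes with at least 40 hairpin reads, sorted by the difference of the means (lines). Mir222, Mir21a and Mir5099 have ratios that differ little between conditions, and the widest gaps belong to Mir93, which has 0 reads in a withdrawal library, and Mir221.

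By family, 21 of 25 hairpins of the macrophage list were in the tables and 16 were tested in the Ion Proton run. Mir222 fell, none rose, and the median log2 change was -0.52, against -0.26 over the tested paired hairpins and 0.08 over all features. Their summed level was 133 and 113 CPM in control and 89.4 and 86.9 CPM after withdrawal, and 463 and 273 RPM in SOLiD total RNA. Most of the Ion Proton sums was Mir21a, which was not called, with 83.6 and 73.8 CPM and then 61.3 and 63.1 CPM. Of the let-7 family, which favours differentiation over proliferation, 10 of 12 were listed and 4 tested, with none called. The summed let-7 hairpin level was 2.32 and 2.51 CPM and then 6.13 and 4.29 CPM in Ion Proton, but 35.2 and then 20.4 RPM in SOLiD total RNA and 120 and then 42.6 RPM in size-selected RNA. Both Ion Proton withdrawal values were thus above both controls, and both SOLiD withdrawal values were below their control. Mirlet7c-1, listed in SOLiD alone, had 7.97 and 1.15 RPM in total RNA and 28.4 and 2.23 RPM in size-selected RNA, and Mirlet7a-1 had 7.62 and 6.49 RPM and 39.6 and 15.8 RPM, above Mirlet7c-1 in each SOLiD library but the total RNA control. The hairpins of the proliferation clusters (11 of 14 listed, 5 tested, none called) summed to 7.22 and 10.3 CPM and then 3.37 and 0.991 CPM, and to 27.4 and 15.6 RPM in SOLiD total RNA, with 7.80 and 2.54 RPM for Mir92-1. Those linked to growth arrest and p53 (11 of 14 listed, 7 tested, none called), led by Mir16-1 in the Ion Proton and SOLiD total RNA controls, summed to 21.5 and 21.2 CPM and then 14.9 and 14.2 CPM, and to 30.8 and 20.8 RPM in SOLiD total RNA, but to 12.6 and then 16.6 RPM in size-selected RNA. The miR-29 and miR-30 hairpins (9 of 10 listed, 4 tested, none called) overlapped, at 24.7 and 31.2 CPM and then 19.5 and 26.4 CPM, with 8.28 to 16.1 CPM for Mir30d.

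In Ion Proton, most genes of the 10 highest mature miRNAs had few hairpin reads, Mir21a and Mir222 having more. There Mirlet7a-1 had 0 to 1.49 CPM, Mirlet7a-2 0 to 0.153, Mirlet7f-2 0.557 to 3.07, Mirlet7i 0 to 1.99, Mir146b 0.153 to 1.29 and Mir92-1 0 to 0.613 CPM, against at least 8165 CPM of mature reads for each gene. Mir146b, whose product restrains Toll-like receptor signalling, had 1.29 and 1.25 CPM in control and 0.153 and 0.330 CPM after withdrawal, without overlap and without passing the test (log2 change -2.27 ± 0.76, edgeR adjusted p = 0.108), while miR-146b-5p fell by 0.99 (SE 0.08; edgeR, adjusted p = 0.00293). The same genes had more hairpin reads in the size-selected SOLiD control, with 39.6 RPM for Mirlet7a-1, 26.2 for Mir221, 16.8 for Mirlet7i and 15.04 for Mir92-1. Mirlet7c-2 and Mir92-2 were listed in SOLiD alone, at 0.821 to 7.07 RPM.

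Between the single SOLiD libraries of total RNA, 113 hairpins had at least 20 reads. Of these, 19 were at least 2-fold higher after withdrawal and 35 at least 2-fold lower, against 37.9% and 15.4% of all 1804 features with that many reads. In size-selected RNA 14 of 96 were higher and 33 lower, against 42.8% and 14.7% of 1593. The median log2 ratio was -0.28 for hairpins and 0.36 for all features in total RNA, and -0.59 and 0.72 in size-selected RNA. Mir324, among the highest in size-selected RNA, had 47.8 and 27.7 RPM there, 6.76 and 12.4 RPM in total RNA and 0 to 2.19 CPM in Ion Proton. There are no replicates behind these counts.

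The groups also differed in sequence. The minimum free energy predicted by RNAfold, a measure of how firmly an RNA folds on itself, had a median of -0.435 kcal/mol per nt over the 230 paired hairpins (quartiles -0.496 and -0.384) and of -0.347 (quartiles -0.518 and -0.279) over the 173 hairpins without a Mir symbol and with a sequence. Their GC content had medians of 50.2% and 57.6%. The called hairpins ran from -0.241 kcal/mol per nt for ENSMUST00000175596 to -0.632 for Gm26117, with Mir222 at -0.515 and Mir5099 at -0.359.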

How the data were processed

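Small RNA of BMDMs was sequenced on Ion Proton (2 control and 2 withdrawal libraries) and SOLiD (4 single libraries). The authors trimmed Ion Proton reads with cutadapt 1.2.1, mapped them to mm10 with Bowtie2 2.2.4 in local mode with up to 10 places per read, mapped SOLiD reads with LifeScope, and counted both on miRBase, tRNA and Ensembl features. The deposited Ion Proton values are raw counts. The deposited SOLiD values are reads per 1000000 listed reads (RPM) written with decimal commas, and whole reads were recovered from them (100% of values within 0.01 of a whole number). Where labels and methods differ on the RNA extraction, both were left unresolved.

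The test of the Ion Proton counts was that of edgeR 4.0.16 (quasi-likelihood, TMM, summed count of at least 5), and both runs with limma 3.58.1 on log2(RPM + 1), where a fold change of a low feature is understated. DESeq2 1.42.0 and voom on the recovered reads were alternatives. P-values were adjusted by Benjamini-Hochberg over all features. With 2 replicates per group, p-values rest on few degrees of freedom. The edgeR fit, and the limma fit with the median of each library as centre, were first tested on simulated data in which 200 features had known changes. The limma fit without that centring, which gave the 7 calls of both runs, was not tested in this way. Same-numbered Ion Proton libraries did not deviate together (correlation -0.031), and replicates differed by more than sampling noise (chi-square per degree of freedom 23.0 and 22.4). SOLiD comparisons have 1 library per condition and no test, and their 95% intervals cover counting error only.

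Hairpins were named by Ensembl identifier through GENCODE M21 (394 of 450 found, 12 of them at another place or strand, named by position), paired with mature miRNAs by symbol or position, and folded with RNAfold 2.7.2. Hairpins were named in the text if among the 8 highest of Ion Proton, SOLiD total RNA or size-selected RNA, if past the threshold in Ion Proton, if a gene of the 10 highest mature miRNAs, or if the highest of a family list by the mean over the libraries whose table lists it. Others are said to be named from their values. The members and lists were chosen with earlier results of these data known.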

Additional observations from a re-analysis of the deposited data

Results flagged for a closer look

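ENSMUST00000102093 had opposite directions on the 2 platforms. In SOLiD total RNA its level after M-CSF withdrawal was 0.776 of that in control (95% counting interval 0.675 to 0.893), and in size-selected RNA 0.435 (0.353 to 0.532), while both Ion Proton withdrawal libraries were above both controls (log2 change 0.29 ± 0.15, SE; edgeR adjusted p = 0.268). The difference was not tested, since SOLiD has 1 library per condition.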

How the results depend on the processing

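The 10 calls of the Ion Proton run became 5 with the replicate block, a pairing that the libraries do not show, in which Gm26117 (adjusted p = 0.0502), Gm23388 (0.0608), Gm25911 (0.0707), Mir222 (0.105) and Mir10a (0.117) were not called, and 6 to 11 when 1 library was left out (6 without withdrawal replicate 1 and 6 without withdrawal replicate 2). Over all features the block left 359 of the 500 calls by number, and DESeq2 gave 477, 236 higher and 241 lower, against 318 and 182 with edgeR; TMM over mature miRNA features gave 425, 412 higher and 13 lower. The 7 calls of both runs became 12 with the median of each library as centre (1 higher and 11 lower, with 178 higher and 226 lower over all features), 4 with a filter of 1 summed read, 11 with voom on whole reads (422 over all features), and 0 to 17 when 1 library was left out. The highest of these counts came without a SOLiD library, where the change rests on the Ion Proton libraries alone. The difference in hairpin share was 0.126 percentage points (0.106 to 0.146 with 1 library left out). It was 0.720 as a percent of reads on miRNA features and, in subsets chosen after seeing the data, 0.00236 for paired hairpins and -0.00529 for these without Mir5099. The difference per 1000 mature reads was 7.38 (6.60 to 8.16 with 1 library left out), 0.544 for paired hairpins and 0.0723 for these without Mir5099. With 1 read added, 34 in place of 35 hairpin to mature ratios did not overlap.

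With TMM over mature miRNA features the changes of Mir30d (0.17), Mir21a (0.10), ENSMUST00000175336 (0.28) and ENSMUST00000175620 (0.28) turned positive. With 1 library left out, the change ranged from -5.28 to 2.85 for Mirlet7i, from -0.14 to 4.5 for Mir92-1, from -0.65 to 0.15 for Mir30d and from -0.41 to 0.15 for ENSMUST00000175620. None of these was called. Of 89 alternatives for the 10 called hairpins, 60 kept the call, 29 lost it and 0 turned its direction; ENSMUST00000175357, ENSMUST00000175596 and ENSMUST00000175243 kept it in each. These alternatives were all of the Ion Proton run. Of the 10, the fit of both runs called ENSMUST00000175596 and Mir1956. It did not test ENSMUST00000175357, which had too few reads in SOLiD total RNA. The others were not called there (limma, adjusted p = 0.0629 to 0.187), ENSMUST00000175243 among them (0.0898). The causes were not tested. Single SOLiD libraries, 2 replicates and a few reads per hairpin limit most of these values.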
